A study of Mus musculus with 8 samples.

Results

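The 9 genes studied here are transcription factor genes of the excitatory neurons of the cortex: Neurog1, Neurog2, Eomes, Tbr1, Neurod1, Neurod2, Neurod6, Fezf2 and Bhlhe22. They were chosen by name, and every probe set that the platform annotation assigns to 1 of these symbols alone was taken. That gave 13 of the 45101 probe sets on the array and covered 8 of the 9 genes. Bhlhe22 was matched to no such probe set and was not analysed here. RNA of mouse telencephalon from animals of a Dlx1/2 mutant line was hybridised to 8 arrays in 4 groups: basal ganglia (BG) of -/- animals, BG of +/- animals, cortex (Ctx) of -/- animals and Ctx of +/- animals, with n = 2 arrays in each. Dlx1 and Dlx2 are neighbouring homeobox genes that act in the subpallium, where inhibitory neurons are made. The labels write the genotype as -/- or +/- and name no allele. The +/- samples carry 1 mutant copy themselves, and no wild-type group was used here. The labels give no age, strain or number of animals per array, so the p-values measure only the spread between arrays, which may be technical.

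The cortex makes its glutamatergic neurons from pallial progenitors in a sequence of transcription factors. The neurogenins, basic helix-loop-helix (bHLH) proneural factors, act in dividing progenitors and start neurogenesis. Eomes, also called Tbr2, marks the intermediate progenitors that follow, NeuroD factors act as cells become neurons, and Tbr1 and Fezf2 take part in setting the identity of deep-layer neurons. The usual neuronal products of the subpallium are GABAergic neurons.

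Promoters of the genes that changed in BG are shown first, with Tbr1 for comparison because it was the 1 promoter with more than 1 homeodomain core. RefSeq windows of GRCm38.p6, from 250 bases before to 50 bases after the gene's start, were found for 8 of the 9 genes. Capitals mark the homeodomain core TAATTA, a sequence that DLX proteins and many other homeodomain proteins bind, and the E-box CANNTG, which bHLH proteins bind. Both strands were searched. The windows of Neurog1 (chr13:56252131-56252430, minus strand), Neurog2 (chr3:127632886-127633185, plus strand), Fezf2 (chr14:12345816-12346115, minus strand), Neurod1 (chr2:79456587-79456886, minus strand) and Tbr1 (chr2:61804203-61804502, plus strand) read, 5′ to 3′ on the gene's strand:
Neurog1: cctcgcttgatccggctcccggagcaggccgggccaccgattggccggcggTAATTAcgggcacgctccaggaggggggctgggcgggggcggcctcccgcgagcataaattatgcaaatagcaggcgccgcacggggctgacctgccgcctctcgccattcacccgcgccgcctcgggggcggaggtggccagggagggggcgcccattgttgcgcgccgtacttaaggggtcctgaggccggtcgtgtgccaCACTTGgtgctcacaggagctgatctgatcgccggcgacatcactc
Neurog2: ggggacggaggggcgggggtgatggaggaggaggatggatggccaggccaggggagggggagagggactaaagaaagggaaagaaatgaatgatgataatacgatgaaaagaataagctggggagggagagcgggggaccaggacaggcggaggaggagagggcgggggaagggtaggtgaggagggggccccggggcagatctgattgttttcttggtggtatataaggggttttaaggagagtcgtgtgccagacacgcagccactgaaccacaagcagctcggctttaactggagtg
Fezf2: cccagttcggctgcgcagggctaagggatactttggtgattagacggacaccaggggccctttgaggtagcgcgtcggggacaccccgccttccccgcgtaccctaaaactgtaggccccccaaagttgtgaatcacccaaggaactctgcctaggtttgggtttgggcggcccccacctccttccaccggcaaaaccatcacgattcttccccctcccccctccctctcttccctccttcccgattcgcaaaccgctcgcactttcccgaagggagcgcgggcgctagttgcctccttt
Neurod1: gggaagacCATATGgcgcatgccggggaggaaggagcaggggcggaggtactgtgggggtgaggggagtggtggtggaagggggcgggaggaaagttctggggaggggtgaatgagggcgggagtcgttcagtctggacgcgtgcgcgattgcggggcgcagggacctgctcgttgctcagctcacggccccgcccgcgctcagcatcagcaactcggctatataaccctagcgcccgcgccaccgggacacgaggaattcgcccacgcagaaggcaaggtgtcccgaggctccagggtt
Tbr1: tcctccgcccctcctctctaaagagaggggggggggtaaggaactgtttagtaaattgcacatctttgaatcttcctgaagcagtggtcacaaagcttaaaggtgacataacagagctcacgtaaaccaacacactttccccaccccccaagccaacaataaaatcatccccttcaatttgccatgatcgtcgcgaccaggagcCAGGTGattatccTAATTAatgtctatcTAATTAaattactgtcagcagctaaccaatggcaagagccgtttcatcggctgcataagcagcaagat

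The homeodomain core was present in 2 of the 8 promoter windows, those of Neurog1, at 199 bases before the start, and Tbr1, at 33 and 18 bases before it. Over all 32851 promoter windows, 5.29% held it. An E-box was present in 5 of the 8 windows, against 72.3% of all windows. The E-box form CAGATG, which is one of the E-boxes and is favoured by neurogenins and NeuroD factors, was present in 1 of 8, that of Neurod2, against 17.2% of all windows. The T-box core AGGTGT was in 2 of 8, those of Neurod1 and Neurod6, against 13.7%. The Neurog2, Eomes and Fezf2 windows held none of these letters. A match is a description of the letters in the window and was not tested as a binding site.

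Values are deposited signals on a linear scale, in arbitrary units, and differences are given on the scale log2(signal + 16), which understates the differences of dim probe sets. The targeted genes were lower in each -/- array. Dlx1 was at 3.67 and 15.5 in BG -/- arrays, against 1232 and 1237 in BG +/- arrays, and at 2.42 and 1.74 in Ctx -/- arrays, against 138 and 137 in Ctx +/- arrays. Dlx2 was at 6.69 to 12.0 in the 4 -/- arrays, against 55.3 to 358 in the 4 +/- arrays. The region labels held by their markers: 6 subpallial genes (Gsx2, Nkx2-1, Isl1, Gad1, Gad2 and Six3) summed to 3512 to 3533 in BG -/- and 4377 to 4504 in BG +/-, and to 79.3 to 82.4 in Ctx -/- and 488 to 490 in Ctx +/-. A source label that names blood and adrenal medulla conflicts with these tissues, and 4 adrenal medulla genes summed to between 314 and 453 in all 8 arrays. Chga, at 162 to 261, was the largest part of each of these sums. Hbb-y, a red blood cell gene, was at 1231 to 5819 in the 8 arrays. Arrays of 1 group correlated at 0.973 to 0.982 across probe sets and arrays of different groups at 0.930 to 0.977 (Pearson, log2 scale). Sex-linked genes differed with genotype: Xist was at 2340 to 2519 in the 4 -/- arrays, against 34.2 to 67.5 in the 4 +/- arrays, so sex and genotype cannot be told apart in the genotype comparisons.

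**Figure D1:**
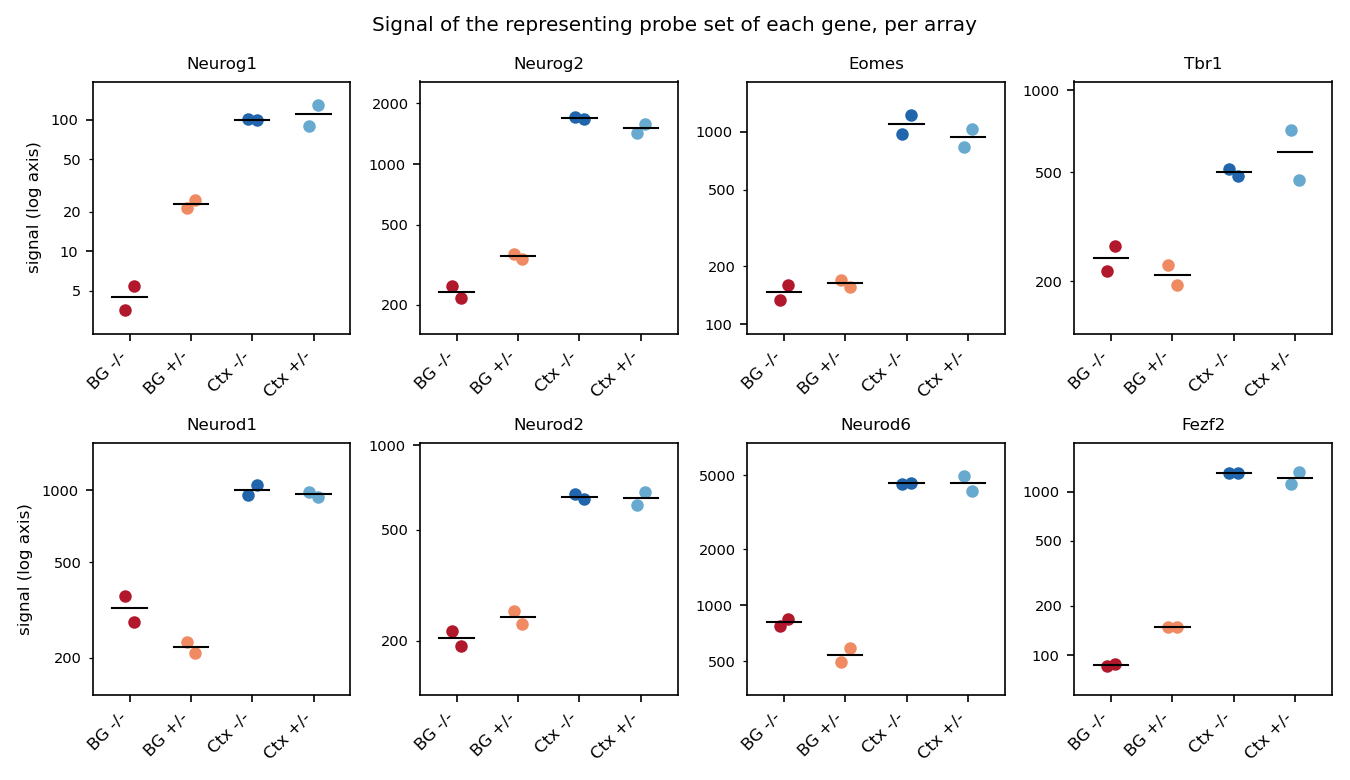
Signal of the probe set that represents each of the 8 genes (log axis, arbitrary units) in the 2 arrays of each group (points), with the group mean as a bar. Every Ctx array lies above every BG array for all 8 genes, and in BG the -/- arrays lie below the +/- arrays for Neurog1, Neurog2, Neurod2 and Fezf2 and above them for Neurod1 and Neurod6.

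The first question was how these genes differed between genotypes in the basal ganglia. In BG -/- the neurogenin genes Neurog1 and Neurog2 and the zinc finger gene Fezf2 fell, and Neurod1 rose on 1 of its 2 probe sets. Of the 11 probe sets that passed a filter on low signals, 3 fell, 1 rose and 7 did not pass (limma, Benjamini-Hochberg over 31526 probe sets). The background in the same comparison was 9.74% of probe sets called, 2.23% lower and 7.50% higher. No probe set of these genes passed without any 1 of the 4 BG arrays or of the 2 Ctx -/- arrays (Neurog1 adjusted p of 0.0548 to 0.131), and 4 passed without either Ctx +/- array. In pieces of tissue, fewer cells of a type and less RNA per cell cannot be told apart.

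Neurog1 had the largest difference of the 11 with the offset of 16, though not with an offset of 64. Its brighter probe set, 1438551_at, was at 3.53 and 5.44 in BG -/- arrays, against 21.2 and 24.5 in BG +/- arrays. All of these signals are low, and those of BG -/- lie below the offset of 16. The filter used the mean over all arrays, and this probe set was kept because its Ctx signals, 90.6 to 131, were high. Its test in BG thus compares signals that are dim in both genotypes. The log2 difference was -0.92 ± 0.17 (SE; limma adjusted p = 0.0248), and it was -2.14 with an offset of 1 and -0.34 with an offset of 64, where it did not pass (adjusted p = 0.0873). A second Neurog1 probe set, 1450836_at, was below the filter and not tested. It was at 9.46 and 5.84 in BG -/- arrays, against 21.7 and 20.0 in BG +/- arrays, so on both probe sets the BG -/- arrays were the lower pair. Such a lower pair without overlap was found for 28.6% of all tested probe sets. On 1450836_at, unlike on 1438551_at, BG +/- had the highest mean of the groups and Ctx +/- the lowest, so it adds little.

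Neurog2, which promotes the glutamatergic fate in cortical progenitors, was at 248 and 216 in BG -/- arrays, against 359 and 339 in BG +/- arrays. It fell by 0.56 on the log2 scale, with an SE of 0.13 (limma adjusted p = 0.0421). The call was lost with each array centred on its median, with no filter on low signals, with an offset of 1 and in the fit of the 4 BG arrays alone. Fezf2, which directs corticospinal and other subcerebral projection neurons, was at 85.5 and 88.7 in BG -/- arrays, against 149 and 149 in BG +/- arrays. The arrays of each genotype lay within a few units of each other, and the log2 difference was -0.68 ± 0.13 (limma adjusted p = 0.0247). This call was lost in the fit of the 4 BG arrays alone.

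Eomes, the T-box factor of intermediate progenitors, was measured by a pair of probe sets that were not equally clear. On 1426001_at it was at 94.3 and 124 in BG -/- arrays, against 173 and 171 in BG +/- arrays, a difference of -0.60 ± 0.15 that did not pass (limma adjusted p = 0.0507). It passed with an offset of 64, with the dimmer 50% of probe sets left out and with quantile normalization (adjusted p of 0.0210 to 0.0359). On 1435172_at, the brighter of the 2, it was at 135 and 159 in BG -/- arrays, against 171 and 156 in BG +/- arrays. These arrays overlapped, and the difference was -0.14 ± 0.17 (adjusted p = 0.640).

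The NeuroD genes, which neurons switch on as they leave the cell cycle, had positive differences in BG on 4 of their 5 tested probe sets, of which 1 passed. Neurod1 on 1426413_at was at 150 and 172 in BG -/- arrays, against 90.8 and 99.9 in BG +/- arrays, and rose by 0.66 ± 0.12 (limma adjusted p = 0.0248). This call too was lost with each array centred on its median, with no filter on low signals and in the fit of the 4 BG arrays alone. On its brighter probe set, 1426412_at, it was at 361 and 283 in BG -/- arrays, against 234 and 209 in BG +/- arrays. The arrays did not overlap there either, but the difference of 0.50 ± 0.15 did not pass (adjusted p = 0.0879). Neurod6, a marker of differentiated pyramidal neurons, was at 775 and 844 in BG -/- arrays, against 493 and 592 in BG +/- arrays. Its difference of 0.57 ± 0.15 did not pass (adjusted p = 0.0635), though both BG -/- arrays were the higher pair. With an offset of 64 or with the dimmer 50% of probe sets left out, Neurod1 1426412_at (adjusted p = 0.0420 and 0.0428) and Neurod6 (adjusted p = 0.0201 and 0.0281) passed.

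Neurod2 gave opposite signs on different probe sets. On 1435411_at it was at 218 and 192 in BG -/- arrays, against 256 and 231 in BG +/- arrays, a difference of -0.23 ± 0.13 (limma adjusted p = 0.300). On 1418995_at it was at 83.1 and 118 in BG -/- arrays, against 70.3 and 60.6 in BG +/- arrays, a difference of 0.50 ± 0.19 (adjusted p = 0.147). The remaining one, 1444362_at, was below the filter, at 3.35 and 12.2 in BG -/- arrays, against 2.87 and 3.06 in BG +/- arrays. No direction can be given for Neurod2 in BG. Tbr1, a T-box factor of early-born and layer 6 neurons, was at 218 and 269 in BG -/- arrays, against 229 and 193 in BG +/- arrays. The genotypes overlapped, with a difference of 0.19 ± 0.22 (adjusted p = 0.620).

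In BG the arrays of the genotypes did not overlap for 9 of the 11 tested probe sets, 5 lower and 4 higher in -/-, against 60.0% of all probe sets, 28.6% lower and 31.3% higher. At an unadjusted p under 0.05 there were 8 of 11, of which 4 were lower and 4 higher, beside 28.2% of all probe sets, 11.3% lower and 17.0% higher. The median log2 difference of the 11 was -0.14, beside 0.01 over all probe sets tested. Tbr1 and Neurod1 lie on chromosome 2, as Dlx1 and Dlx2 do, while Neurog1, Neurog2 and Fezf2 lie on chromosomes 13, 3 and 14.

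**Figure D2:**
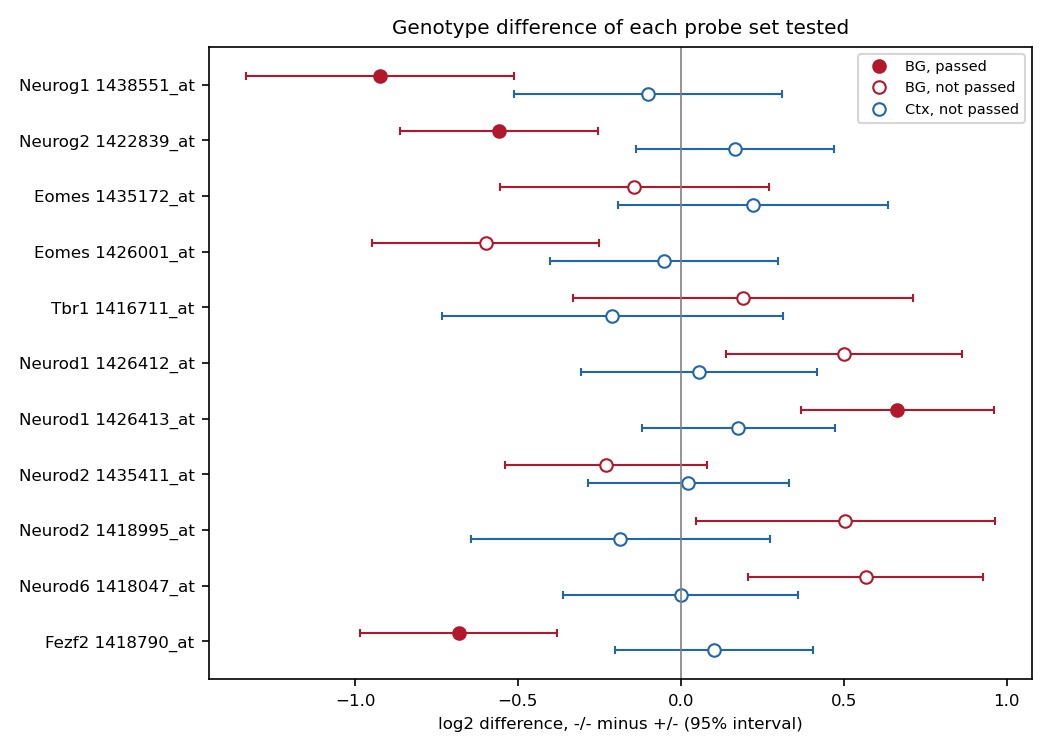
Log2 difference of -/- minus +/- for each of the 11 tested probe sets in BG (red) and Ctx (blue), with 95% intervals from the limma fit; filled points passed an adjusted p of 0.05. The filled points are Neurog1, Neurog2 and Fezf2 on the left and 1 probe set of Neurod1 on the right, all in BG, and the Ctx intervals all span 0.

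Summed markers of several other cell types differed between the genotypes in BG as well. The 4 pallial markers with a probe set, Emx1, Emx2, Slc17a7 and Lhx2, summed to 924 to 1025 in BG -/- arrays and 864 to 1023 in BG +/- arrays. These ranges overlap, and none of the 4 passed between the genotypes in BG. Of these, Emx1, a homeobox gene restricted to the pallium, was at 84.2 and 75.4 in BG -/- arrays, against 108 and 100 in BG +/- arrays. Emx1 had a log2 difference of -0.33, and the other pallial markers went the other way. Their differences were 0.06 for Emx2, 0.08 for Lhx2 and 0.58 for Slc17a7. The 6 Cajal-Retzius markers summed to 1934 to 2058 in BG -/-, against 1398 to 1448 in BG +/-, and 1 of 6 rose, Ebf3. The 7 diencephalic and hypothalamic genes summed to 920 to 988 in BG -/-, against 496 to 529 in BG +/-, and of the 6 tested Otp, Lhx9 and Otx2 rose. Both of these sums were higher in BG -/- with no overlap of arrays. In BG 60.0% of all tested probe sets had no overlap either, 31.3% higher and 28.6% lower, though that share is of single probe sets and not of sums. Of all genes tested in BG, 4.76% were called higher and 3.05% lower. Reln made up most of the Cajal-Retzius sum and did not pass. Sums of choroid plexus, microglia and adrenal medulla genes were lower in BG -/- without overlap, though none of their tested genes passed. For microglia genes the sums were 496 to 503 in BG -/-, against 512 to 639 in BG +/-. The 6 subpallial genes were lower in sum, as given above, with Six3 alone passing, and 4 red blood cell genes summed to 3113 to 3240 in BG -/-, against 5946 to 6240 in BG +/-, with Hbb-y alone passing. Slc17a7, the vesicular glutamate transporter of cortical neurons, was among the dim ones, at 17.6 and 24.5 in BG -/- arrays, against 4.76 and 13.4 in BG +/- arrays. The part of these cell types in the differences was not tested.

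The second question was whether the genes differed between genotypes in the cortex, the tissue in which their signals were highest. None of the 11 tested probe sets passed in Ctx (limma adjusted p of 0.696 to 0.9998), against 0.225% of all probe sets called, 0.0476% higher and 0.178% lower. None had an unadjusted p under 0.05 either, against 9.67% of all probe sets, 4.03% higher and 5.64% lower. The differences ran from -0.21 for Tbr1 to 0.22 for Eomes, and their 95% intervals lay between -0.73 and 0.63 on the log2 scale. Differences beyond those bounds lie outside the intervals of all 11. The interval of Neurog2, for example, ran from -0.14 to 0.47. The median was 0.02, beside -0.01 over all probe sets.

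Neither neurogenin passed between the genotypes in the cortex. Neurog2 was at 1711 and 1676 in Ctx -/- arrays, against 1433 and 1587 in Ctx +/- arrays, with no overlap but a difference of 0.17 ± 0.13 (limma adjusted p = 0.725). Neurog1 on 1438551_at was at 101 and 100.4 in Ctx -/- arrays, against 90.6 and 131 in Ctx +/- arrays. On the dim 1450836_at it was at 20.3 and 14.4 in Ctx -/- arrays, against 4.05 and 5.29 in Ctx +/- arrays, so the 2 probe sets of Neurog1 did not show the same order of groups.

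Later factors overlapped between the genotypes on nearly every probe set. Eomes was at 980 and 1217 in Ctx -/- arrays, against 839 and 1041 in Ctx +/- arrays on 1435172_at. On 1426001_at it was at 1145 and 1044 in Ctx -/- arrays, against 1124 and 1143 in Ctx +/- arrays, so both probe sets overlapped. Neurod6, with the highest signals of the probe sets followed here, was at 4490 and 4566 in Ctx -/- arrays, against 4976 and 4119 in Ctx +/- arrays. Fezf2 was at 1306 and 1308 in Ctx -/- arrays, against 1116 and 1326 in Ctx +/- arrays. In each of these the Ctx -/- values fell inside or across the range of the Ctx +/- values.

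Neurod1 was at 954 and 1052 in Ctx -/- arrays, against 987 and 941 in Ctx +/- arrays on 1426412_at. On 1426413_at it was at 558 and 541 in Ctx -/- arrays, against 472 and 497 in Ctx +/- arrays, a pair without overlap and a difference of 0.18 ± 0.12 (limma adjusted p = 0.696). Neurod2 was at 669 and 644 in Ctx -/- arrays, against 613 and 680 in Ctx +/- arrays on 1435411_at. On 1418995_at it was at 447 and 370 in Ctx -/- arrays, against 428 and 506 in Ctx +/- arrays, and on the dim 1444362_at at 23.2 and 24.7 in Ctx -/- arrays, against 36.6 and 19.7 in Ctx +/- arrays. Neither Neurod2 nor the brighter Neurod1 probe set separated the genotypes.

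Tbr1 was at 515 and 485 in Ctx -/- arrays, against 717 and 470 in Ctx +/- arrays. The Ctx +/- arrays were far apart for this gene, which gave it the widest interval of the 11. Arrays without overlap were found for 2 of 11 probe sets in Ctx, those of Neurog2 and Neurod1, both higher in -/-, against 39.4% of all probe sets, 18.6% higher and 20.9% lower. Other tissue did differ in Ctx. There 5 choroid plexus genes summed to 19.3 to 73.6 in -/- arrays, against 11993 to 13899 in +/- arrays. Ttr alone, at 11634 and 13605, made up most of the Ctx +/- sums. Of the 4 choroid plexus genes tested Ttr and Kcne2 were lower, and of the subpallial genes, summed above, Gad1 and Gad2 fell. Of all genes tested in Ctx, 0.183% were called lower. The part of this tissue in the Ctx values was not tested. The pallial markers summed to 2592 to 2692 in Ctx -/-, against 2707 to 2834 in Ctx +/-, and none of the 4 passed.

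**Figure D3:**
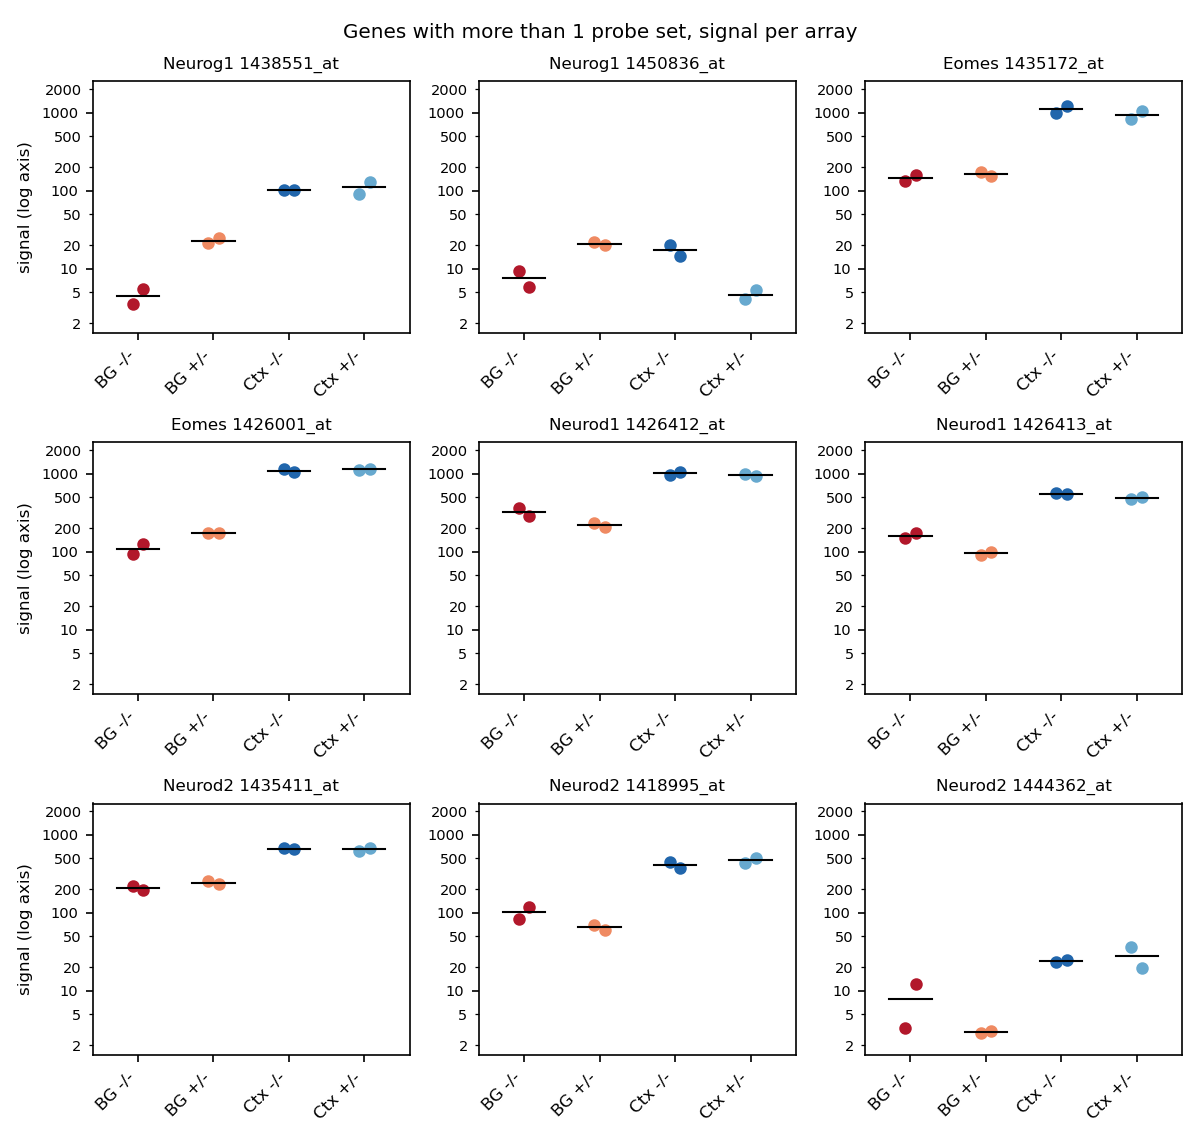
Signal per array (log axis, arbitrary units) for the 9 probe sets of the genes with more than 1 probe set, in the 2 arrays of each group, with the mean as a bar. On Neurog1 1450836_at the Ctx +/- arrays are the lowest, at 4.05 and 5.29, unlike on 1438551_at, and the Neurod2 probe sets 1435411_at and 1418995_at order the BG genotypes in opposite ways.

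The third question was whether the genotype difference itself differed between the regions. It was not shown to do so for any of these genes: none of the 11 interaction terms passed (limma adjusted p of 0.107 to 0.539), beside 0.574% of all probe sets called, 0.517% positive and 0.0571% negative. At an unadjusted p under 0.05 there were 7 of 11, 4 negative and 3 positive, beside 17.7% of all probe sets, 5.67% negative and 12.0% positive. The interaction term, the log2 difference of BG less that of Ctx, came to -0.78 ± 0.18 for Fezf2 (adjusted p = 0.107), -0.72 ± 0.18 for Neurog2 (adjusted p = 0.122) and -0.82 ± 0.24 for Neurog1 (adjusted p = 0.168). On the positive side it was 0.57 ± 0.21 for Neurod6 (adjusted p = 0.245), 0.49 ± 0.18 for Neurod1 on 1426413_at (adjusted p = 0.231) and 0.69 ± 0.27 for Neurod2 on 1418995_at (adjusted p = 0.262). The Fezf2 term passed in 1 alternative, with the dimmer 50% of probe sets left out (adjusted p = 0.0446).

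The region comparisons asked how far these genes distinguish basal ganglia from cortex in each genotype. All 11 tested probe sets were lower in BG than in Ctx in both genotypes, with no overlap of arrays. In -/- animals 17.2% of all probe sets were called, 6.59% lower and 10.7% higher in BG, and in +/- animals 23.8%, 12.8% lower and 11.1% higher. The arrays did not overlap for 67.9% of all probe sets in -/- animals, 28.6% lower and 39.3% higher, and for 62.5% in +/- animals, 28.9% lower and 33.6% higher. The untested Neurog1 probe set 1450836_at was an exception in +/- animals. There both BG arrays, at 21.7 and 20.0, lay above both Ctx arrays, at 4.05 and 5.29. Because the filter used the mean over all arrays, a probe set dim in BG was kept if its Ctx signals were high. Neurog1 1438551_at was such a case, at 3.53 to 24.5 in BG arrays and 90.6 to 131 in Ctx arrays. The statement on all 11 thus leaves out the probe set of Neurog1 that was dim in both regions. Neurod2 1444362_at, also left out, was lower in BG in both genotypes. With each array centred on its median, 5384 probe sets were lower and 1937 higher in BG of -/- animals, beside 2077 and 3361 without centring. In +/- animals the counts were 4829 and 2234, beside 4029 and 3489. Centring set the median of all differences at -0.21 in -/-, beside 0.08 without it, and at -0.06 in +/-, beside 0.06. All 11 were still called lower with it.

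In -/- animals the differences ran from -3.68 ± 0.13 for Fezf2 (limma adjusted p = 8.45e-05) to -1.0 ± 0.22 for Tbr1 (adjusted p = 0.0259). In +/- animals they ran from -3.03 ± 0.15 for Neurod6 (adjusted p = 0.000251) to -1.35 ± 0.13 for Neurod2 on 1435411_at (adjusted p = 0.00132). The median of the 11 was -2.46 in -/- and -2.17 in +/-, beside 0.08 and 0.06 over all probe sets. Fezf2 signals averaged 87.1 ± 2.26 in BG -/- and 1307 ± 1.71 in Ctx -/- (SD, n = 2 each), and 149 ± 0.0674 in BG +/- and 1221 ± 149 in Ctx +/-.

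The order of the 4 groups divided the probe sets rather than the genes, with those of Neurod2 on both sides. BG -/- was lowest and BG +/- next for Neurog1 on 1438551_at, Neurog2, Eomes, Neurod2 on 1435411_at and Fezf2, and these neighbours were apart in each except Eomes on 1435172_at. BG +/- was lowest and BG -/- next for Tbr1, whose BG arrays overlapped, and for Neurod1, Neurod6 and the other Neurod2 probe sets, whose BG arrays were apart. The step to Ctx was clear of overlap throughout, apart from the dim second Neurog1 probe set. The Ctx groups overlapped for all but Neurog2, Neurod1 on 1426413_at and that Neurog1 probe set. The region call for Tbr1 in -/- was lost without any 1 of the 4 -/- arrays (difference of -1.14 to -0.86), and that for Neurog1 in +/- was lost with the mean of its 2 probe sets (-0.43, adjusted p = 0.0638).

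**Figure D4:**
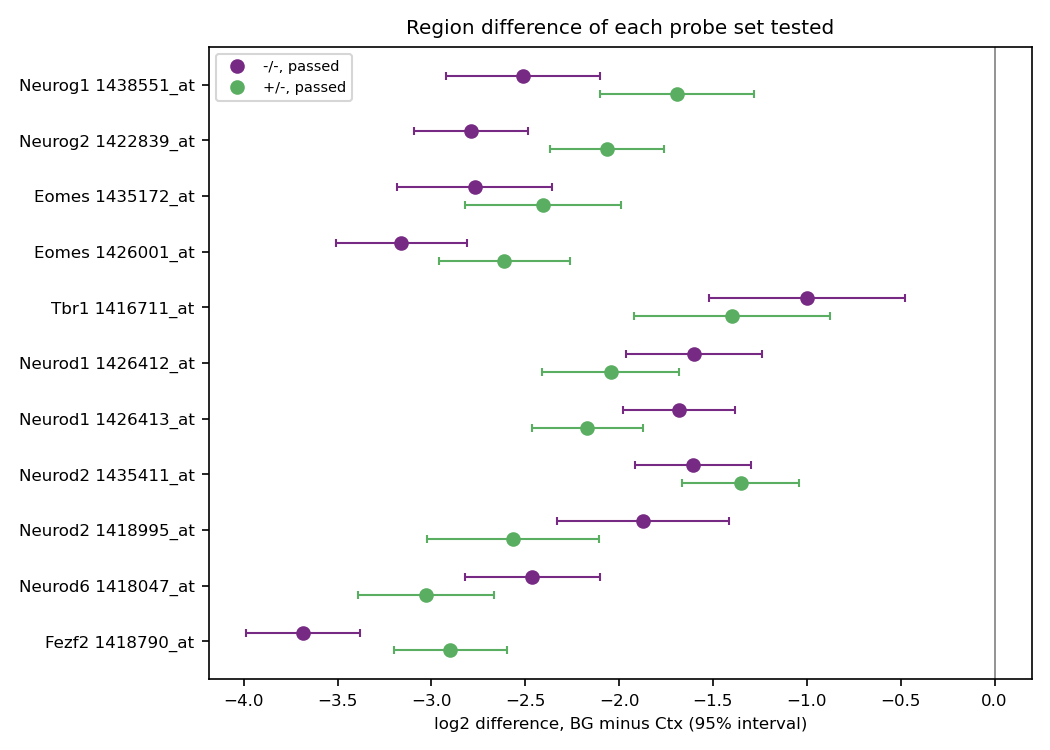
Log2 difference of BG minus Ctx for each of the 11 tested probe sets in -/- (purple) and +/- (green) animals, with 95% intervals from the limma fit; all points passed an adjusted p of 0.05. All intervals lie below 0, and the purple point lies left of the green one for Neurog1, Neurog2, Eomes, Fezf2 and Neurod2 1435411_at.

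Other genes of the pathway were counted by the probe set that represents each. Of 25 further genes of pallial and glutamatergic neurons, 24 were tested. In BG -/- 3 rose and 2 fell, with a median of 0.09, beside -0.08 over all 13627 genes tested, of which 4.76% were called higher and 3.05% lower. Slc17a6, a vesicular glutamate transporter, was at 505 and 485 in BG -/- arrays, against 230 and 236 in BG +/- arrays. Dcx, an X-linked gene for a microtubule protein of migrating neurons, was at 4993 and 4617 in BG -/- arrays, against 2599 and 2426 in BG +/- arrays. In both the -/- arrays were the higher pair, by 1.04 ± 0.16 for Slc17a6 and 0.93 ± 0.13 for Dcx on the log2 scale (limma adjusted p = 0.0141 and 0.0115). The rise of Dcx was not particular to BG. It was at 5466 and 5411 in Ctx -/- arrays, against 3462 and 2985 in Ctx +/- arrays. That difference of 0.76 ± 0.13 did not pass (limma adjusted p = 0.131). The other gene that rose was Rorb, a layer 4 factor also expressed outside the cortex, which is named here after its values were seen.

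Tiam2, a Rac activator, fell by 1.79 ± 0.13 on the log2 scale (limma adjusted p = 0.00257), with signals of 58.1 and 53.6 in BG -/- arrays, against 233 and 231 in BG +/- arrays. It was also the 1 gene of this list whose interaction term passed, with a more negative difference in BG than in Ctx. Over all genes 0.0660% were called negative and 0.272% positive. Bcl11b, a factor of both subcerebral cortical and striatal neurons, fell as well. None of the 24 passed in Ctx, where 0.0220% of all genes were called higher and 0.183% lower. Between regions, 13 of 24 were lower and 2 higher in BG of -/- animals, and 16 were lower and 3 higher in +/- animals, beside 7.25% of all genes called lower and 11.4% higher in -/- animals and 10.7% lower and 14.0% higher in +/- animals.

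Of 15 regulators of pallial progenitors, 14 were tested and none passed between the genotypes in either region. Over all genes tested, 4.76% were called higher and 3.05% lower in BG, and 0.0220% and 0.183% in Ctx. The regulators included Pax6, which activates Neurog2 in cortical progenitors, at 214 and 153 in BG -/- arrays, against 184 and 189 in BG +/- arrays. Of 21 partners and inhibitors of proneural bHLH factors, 19 were tested and 1 passed, in BG, a count near the share over all genes. The gene that passed was Id2, which binds the E protein partners of bHLH factors and keeps them from DNA. Id2 rose by 1.15 ± 0.12 (limma adjusted p = 0.00623) in BG -/-. Its signals were 1836 and 1927 in BG -/- arrays, against 799 and 875 in BG +/- arrays. Of 12 relatives (T-box genes, Fezf1, Neurog3, Atoh1 and Bhlhe23), only 3 passed the filter on low signals and none passed between the genotypes.

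The genes with the most similar profile were listed for each of the 8 genes by Pearson's r over the 8 arrays, which share their 2 regions, so that r includes the step between the regions and is given as a description. Fezf2 and Neurog2 were among each other's closest 3 (r = 0.998). The closest to Neurog2 were Dusp14, Emx1 and Fezf2 (r = 0.998 to 0.999), and those to Neurod2 were Sstr2, Emx1 and Nr4a3 (r = 0.997 to 0.999). For Eomes they were Znrf2, Zfpm2 and Etl4, for Neurod6 Slf1, Nfia and Tnik, for Neurod1 Rlbp1, Sla and Cabp7, and for Fezf2, beside Neurog2, Mtss1 and Nfe2l3. For Neurog1 they were Shtn1, Hs6st2 and Mycn (r = 0.992), and for Tbr1 Prdm8, Qser1 and Epha5 (r = 0.984 to 0.996). Among the genes themselves r ran from 0.848, between Neurog1 and Tbr1, to 0.998, between Neurog2 and Fezf2.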

How the data were processed

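The authors deposited 1 summarised intensity per probe set and array on a linear scale; the arrays share 1 trimmed mean, so they had been scaled before deposit, and the software is not given in the sources used here. The members and lists were chosen with earlier results of these data known. Of 45101 probe sets 64 controls were left out. Genes were named from the platform annotation and chromosomes from a RefSeq table of GRCm38.p6. Signals were taken as log2(signal + 16), and the lowest 30% of probe sets by mean were left out, which kept 31526. Group means of all 8 arrays were fitted in limma 3.58.1 under R 4.3.3 (lmFit, eBayes, two-sided, Benjamini-Hochberg, threshold 0.05), with 4 residual and 2.76 prior degrees of freedom, after tests on simulated data. The number of arrays limits the precision. Named are all probe sets of the members, up to 4 passing genes of each further list by p, list genes whose values stand beside a result of the members, and the 3 most similar profiles per member, clone names left out. A gene is represented by its probe set with the highest mean. Alternatives were 2 offsets, 2 filters, 2 scalings, a fit of the 4 arrays compared, a replicate block, the mean of a gene's probe sets, and each array left out.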

Additional observations from a re-analysis of the deposited data

How the results depend on the processing

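The region differences of the 11 tested probe sets kept their direction in all alternatives, with 10 or 11 passing in -/- and 10 to 13 in +/-, where 13 includes the 2 probe sets below the filter, of which Neurog1 1450836_at was higher in BG; with the lowest 50% left out Neurog1 was not tested. The count passing in BG, 4 as reported, was 2 with no low-signal filter, 2 with arrays centred on their medians, 1 in the fit of the 4 BG arrays, 3 with the replicate block, 3 with an offset of 1, 6 with an offset of 64 and 6 with the lowest 50% left out (both adding Eomes 1426001_at, Neurod1 1426412_at and Neurod6 and losing Neurog1), 5 with quantile normalization (adding Eomes 1426001_at), and 0 to 4 with 1 array left out. In Ctx it was 0 in every alternative, and for the difference between regions 0 in all but the fit with the lowest 50% left out, where it was 1. The fit of 4 arrays does not give the difference between regions. Same-numbered arrays did not deviate together between groups (r of -0.0262 to 0.0218), so no pairing by number was seen. This cannot exclude that same-numbered samples share animals, because noise of single arrays can hide a pairing. The replicate block ended the call of Neurog2 alone. All probe sets passing ranged from 113 to 4969 in BG (3070 as reported), 19 to 146 in Ctx (71), 3 to 1033 for the difference between regions (181), 1896 to 7377 for regions in -/- (5438) and 3466 to 9175 in +/- (7518). Changes of sign touched only differences that did not pass. With the mean of its probe sets, Neurod2 was at 0.19 in BG, -0.093 in Ctx and 0.28 for the difference between regions, and Neurog1 at 0.29 in Ctx; with centred arrays Eomes 1426001_at was at 0.012 in Ctx. With 1 array left out, Ctx differences ran from -0.33 to 0.13 for Neurog1, -0.12 to 0.014 for Eomes 1426001_at, -0.51 to 0.087 for Tbr1, -0.014 to 0.12 for Neurod1 1426412_at, -0.051 to 0.098 for Neurod2 1435411_at, -0.14 to 0.14 for Neurod6 and -0.021 to 0.23 for Fezf2. The cause of these shifts was not tested. Without detection calls, signals under 16, as for Neurog1 in BG, have no known floor.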
